A study of Mus musculus with 8 samples.

Results

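The 10 genes described here are known from the endothelium of brain blood vessels and were read in bulk tissue: 5 genes of the endothelial barrier (Pecam1, Cldn5, Abcb1a, Slc2a1 and Mfsd2a), the surface proteins Ly6a and Ly6c1, the adhesion receptor Vcam1, and apelin (Apln) with its receptor Aplnr. They were chosen by name, and all 10 were found by their symbol among the 43346 genes of the deposited table. All 10 also passed the filter on low counts, which left 20987 genes for testing. Apln was the only 1 of the 10 that changed between the groups by the test used: it fell by 0.85 on the log2 scale. The interferon-responsive Ly6a had a log2 fold change of 0.04, with a 95% interval of -0.24 to 0.33, in libraries where 15 of 20 interferon-stimulated genes rose.

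The mice were 1.5 months old and carried either green fluorescent protein (GFP) or GFP joined to 100 glycine-arginine repeats (GFP-GR100), a dipeptide repeat protein made from the expanded repeat of C9orf72 in frontotemporal dementia and amyotrophic lateral sclerosis. In both groups the construct was an EGFP fusion plasmid for adeno-associated virus, so the control animals also made GFP. The sources used here do not name the promoter that drove it, the route of delivery or the cells that took it up. Cortex and hippocampus were pooled as tissue, and 1 total RNA library was made per animal from 2 females and 2 males of each group. Below, GFP 1 and 2 and GFP-GR100 1 and 2 are the females, and numbers 3 and 4 are the males. The series title concerns protein translation and stress granules, and the labels state no question about vessels.

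Endothelial cells line the vessels of the brain and form the blood-brain barrier. Tight junctions seal the gaps between them, few vesicles cross them, and transporters carry glucose and lipids in and foreign compounds out. Apelin is a secreted peptide that acts on a G protein-coupled receptor, and the pair is best known from sprouting vessels, where tip cells make the peptide. Ly6a, also called Sca-1, and Ly6c1 are lipid-anchored surface proteins of mouse endothelium and blood cells, and Ly6a is a known target of interferon signalling.

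Levels are given in CPM, each gene's count scaled to a common library total by TMM, the trimmed mean of M values. Library totals of 65880460 to 89113010 counts made 3 counts worth 0.0337 to 0.0455 CPM. The cortex and hippocampus weighed 111.4 to 126.6 mg in GFP animals and 71.9 to 85.1 mg in GFP-GR100 animals. CPM values are shares of a library, so a loss of RNA shared by all genes would not appear in them. Summed neuron markers ran from 8128 to 8671 CPM in GFP and from 6677 to 8745 CPM in GFP-GR100 libraries, and the 16 pan-endothelial genes, which exclude the 10 genes above, from 237 to 253 and from 236 to 280 CPM. Reads at Yam1 were taken here as a mark of ribosomal RNA, which was not tested. The share of counts at Yam1 was 6.94% and 3.97% in GFP females and 2.31% and 2.11% in GFP males. In GFP-GR100 libraries it was 1.87% and 1.58% in females and 5.20% and 5.82% in males. The Yam1 share was thus higher in the control females and in the GFP-GR100 males.

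Across all tested genes, 460 were called higher and 68 lower in GFP-GR100 at an adjusted p under 0.05 (edgeR's quasi-likelihood test with sex in the model), which is 2.52% of those tested, with a median log2 fold change of -0.02. Of the 10 genes, 1 was called, and it was lower, against 0.324% of all tested genes called lower. At an unadjusted p under 0.05, 4 of the 10 lay lower and 0 lay higher, against 7.37% and 8.23% of all tested genes, 15.6% in all. The median log2 fold change of the 10 was -0.14. In Apln alone did the 4 GFP-GR100 libraries lie wholly below the 4 GFP libraries, which held for 3.03% of all tested genes. The other 9 overlapped, whereas 8.06% of all tested genes did not overlap in either direction, 5.03% with GFP-GR100 higher.

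**Figure D1:**
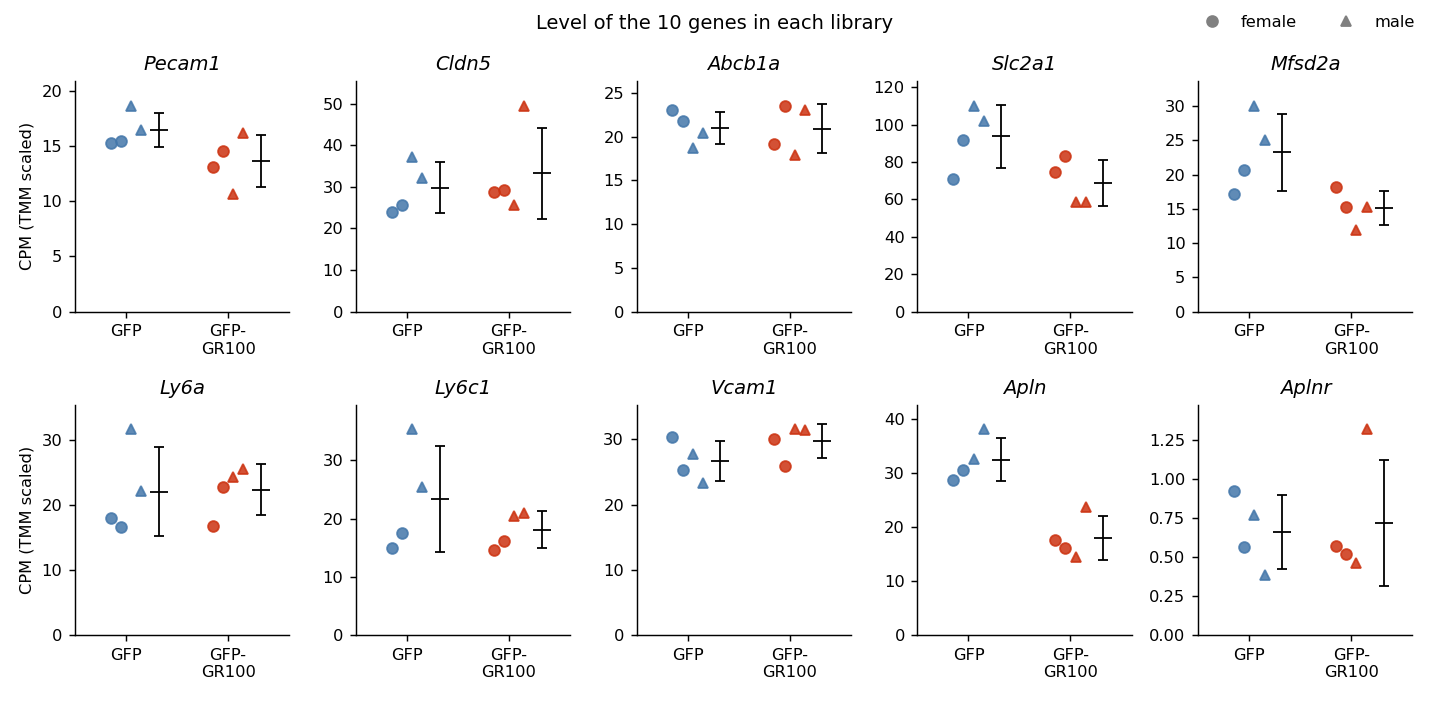
Level of each of the 10 genes in CPM (TMM scaled, axes from 0) in the 4 GFP (blue) and 4 GFP-GR100 (red) libraries; circles are females, triangles males, and the black mark and bar are the group mean and SD. Apln is the one panel without overlap, with GFP at 28.7 to 38.1 CPM and GFP-GR100 at 14.4 to 23.8 CPM, and 1 GFP-GR100 male stands apart in Cldn5 (49.5 CPM) and Aplnr (1.32 CPM).

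Stretches upstream of 3 genes are shown because these 3 had the lowest log2 fold changes of the 10 and because Apln and Slc2a1 are textbook targets of the hypoxia-inducible factors. RefSeq windows on GRCm38.p6 matched 6 of the 10 genes, with none for Ly6a, Pecam1, Aplnr and Vcam1. Only bases before the gene as deposited are printed, 5′ to 3′ on the gene's own strand. Capitals mark the hypoxia response core, searched as ACGTG and GCGTG on both strands, with a match on the other strand read as CACGT or CACGC.
Apln, chrX:48034854-48035103, minus strand: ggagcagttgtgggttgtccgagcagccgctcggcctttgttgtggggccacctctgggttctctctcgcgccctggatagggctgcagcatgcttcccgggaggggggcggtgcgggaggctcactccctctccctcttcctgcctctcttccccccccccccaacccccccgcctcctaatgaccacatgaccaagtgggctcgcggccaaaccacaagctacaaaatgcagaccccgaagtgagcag
Mfsd2a, chr4:122961189-122961438, minus strand: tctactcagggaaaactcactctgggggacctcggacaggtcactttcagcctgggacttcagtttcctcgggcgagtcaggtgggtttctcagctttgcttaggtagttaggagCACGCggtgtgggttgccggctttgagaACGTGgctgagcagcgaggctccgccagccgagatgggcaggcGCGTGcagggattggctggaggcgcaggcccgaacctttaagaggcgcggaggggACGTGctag
Slc2a1, chr4:119108495-119108710, plus strand: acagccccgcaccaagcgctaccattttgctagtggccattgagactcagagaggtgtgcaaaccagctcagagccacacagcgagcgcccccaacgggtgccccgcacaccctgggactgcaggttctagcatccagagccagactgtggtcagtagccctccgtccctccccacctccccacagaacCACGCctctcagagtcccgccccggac
These letters do not occur in the 250 bases before Apln, occur 4 times in the 250 before Mfsd2a and 1 time in the 216 before Slc2a1. Introns and stretches further upstream were not searched, so elements there would be missed. Of 32851 promoters, 38.6% held at least 1 match in 250 bases, 2.58% held 4 or more, and 34.1% held at least 1 in 216 bases. The Mfsd2a window also contains an exon of 4933421A08Rik. The interferon-stimulated response element (in 2.98% of promoters) and the gamma-activated site (TTCNNNGAA, in 7.02%), searched on both strands, had 0 matches in the windows of the 6 genes, Ly6c1 among them. Ly6a had no window and so was not searched. The Abcb1a window, at 8566841 to 8567090 on chromosome 5, lay far upstream of the gene's deposited start at 8660077.

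Apln, which encodes the apelin peptide, was at 28.7, 30.5, 32.6 and 38.1 CPM in GFP 1 to 4. In GFP-GR100 1 to 4 it was at 17.6, 16.1, 14.4 and 23.8 CPM. The highest GFP-GR100 library, a male, lay below the lowest GFP library. The group means were 32.5 ± 4.04 CPM (SD, n = 4) and 18.0 ± 4.08 CPM (SD, n = 4), a change of -44.7%, and Apln fell by 0.85 on the log2 scale (SE 0.13, 95% interval -1.15 to -0.56, edgeR adjusted p = 0.00446). In these bulk samples fewer cells of a type and less RNA per cell cannot be told apart. Nor can the cells of the tissue that held the Apln RNA be named. Apln lies on chromosome X from 48025146 to 48034853 (mm10), and its exons overlap those of no other gene in GENCODE M21.

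The Apln values were lower in both sexes. The log2 fold change was -0.82 in females (adjusted p = 0.139) and -0.89 in males (adjusted p = 0.0265), and the difference between them, males minus females, was -0.07 (95% interval -0.69 to 0.55, adjusted p = 0.927). Relative to the pan-endothelial genes, with libraries scaled by the mean log2 count of those 16 genes in place of TMM, Apln fell by 0.93. This scaling does not show that the Apln RNA came from endothelium, which was not tested. The ratio of Apln to Pecam1 CPM was 1.75 to 2.31 in GFP and 1.10 to 1.47 in GFP-GR100 libraries. These ranges did not overlap, yet with Pecam1 alone as the scale Apln gave a log2 fold change of -0.59 with an adjusted p of 0.0515.

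Aplnr, the apelin receptor, was scarce in this tissue. It was at 0.92, 0.57, 0.77 and 0.38 CPM in GFP 1 to 4, and GFP-GR100 1 to 4 had 0.57, 0.52, 0.465 and 1.32 CPM. The last library, a male, was the highest of all 8, and the other 3 GFP-GR100 libraries lay within the GFP range. The log2 fold change was 0.09 (SE 0.39, 95% interval -0.75 to 0.94, edgeR adjusted p = 0.923), and without GFP-GR100 4 it was -0.39 (adjusted p = 0.665). The interval is wide enough to hold a change of the size seen in Apln upward, and nearly so downward. Aplnr lies on chromosome 2 from 85136225 to 85139923.

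Of the 9 apelin axis genes tested, which also include peptidases that make or cleave the peptide and the proteins that couple the receptor, 1 was called lower, Apln itself, and 0 higher. The median log2 fold change of the 9 was 0.02. Apela, the second ligand of the receptor, is not analysed here.

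Slc2a1 encodes GLUT1, the glucose transporter of the barrier, which astrocytes also make. It was at 70.9, 91.8, 110.0 and 101.8 CPM in GFP 1 to 4, and GFP-GR100 1 to 4 had 74.5, 83.0, 58.7 and 58.5 CPM. The 2 GFP-GR100 males were the lowest of all 8 libraries, whereas the GFP-GR100 females lay within the GFP females' range. Over both sexes the log2 fold change was -0.45 (SE 0.16, 95% interval -0.81 to -0.09, edgeR adjusted p = 0.222), which did not pass the test; without GFP 1, the lowest control, it was -0.61 and passed (adjusted p = 0.0292). The gene lies on chromosome 4 from 119108711 to 119137330 (mm10).

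Mfsd2a, which carries lysophospholipids with docosahexaenoic acid into the brain and holds down vesicle transport across the endothelium, had a like pattern. It was at 17.2, 20.7, 30.05 and 25.1 CPM in GFP 1 to 4, and GFP-GR100 1 to 4 had 18.1, 15.3, 11.95 and 15.2 CPM. The groups overlapped through GFP 1 and GFP-GR100 1, both females, and the 2 control males were the highest. The log2 fold change was -0.60 (SE 0.18, 95% interval -1.002 to -0.20, edgeR adjusted p = 0.146). Scaled by the pan-endothelial genes it was -0.66 and passed (adjusted p = 0.00595), scaled by Pecam1 alone it was -0.31 and did not (adjusted p = 0.352). It lies on the same chromosome as Slc2a1, from 122946850 to 122961188.

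Within males, Slc2a1 fell by 0.85 (edgeR adjusted p = 0.00283) and Mfsd2a fell by 1.02 (adjusted p = 0.00373). Within females the log2 fold changes were -0.05 (adjusted p = 0.929) and -0.18 (adjusted p = 0.737). The difference itself, males minus females, was -0.81 for Slc2a1 (95% interval -1.19 to -0.42, unadjusted p = 0.00056, adjusted p = 0.101) and -0.84 for Mfsd2a (95% interval -1.31 to -0.36, unadjusted p = 0.00223, adjusted p = 0.121). Neither passed over all genes, of which 0.0524% did, with 16.4% at an unadjusted p under 0.05. Each sex and group held 2 libraries, so leaving out 1 left an arm of 1 library, assumed to vary like the others. In such fits the difference in Mfsd2a was -0.99 without GFP 4. That in Slc2a1 was -0.89 without GFP 4 and -0.81 without GFP-GR100 3. Without GFP 4 the GFP males were GFP 3 alone, the highest library in both genes.

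The Yam1 share moved with this split: it was lower in GFP-GR100 than in GFP females and higher in GFP-GR100 than in GFP males. Its part in the difference between sexes was not tested, and in these libraries the share cannot be told apart from that difference. A fit over both sexes, chosen after seeing the data, held a covariate. This was the summed share of Yam1, AY036118 and Lars2, called the rRNA share here. Both genes passed there, with Slc2a1 at -0.46 (edgeR adjusted p = 0.00274) and Mfsd2a at -0.61 (adjusted p = 0.00991), against -0.45 and -0.60 without it. The covariate split by sex and group as the Yam1 share did. It thus cannot be told apart from a difference in effect between sexes, which this fit left out. Slc2a1 and Mfsd2a followed each other across the 8 libraries with r = 0.90, and with r = 0.80 after each group's mean was removed. These correlations are descriptions of log2 CPM within shared libraries, whose sex and rRNA share vary together with the genes.

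In males, 4 of the 10 genes were called lower (Apln, Slc2a1, Mfsd2a and Ly6c1) and 0 higher, against 9.33% of all tested genes called and 3.78% called lower. In females 0 of the 10 were called, against 0.881% of all tested genes called and 0.0524% called lower. Apln alone of the 10 was at an unadjusted p under 0.05 in females.

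**Figure D2:**
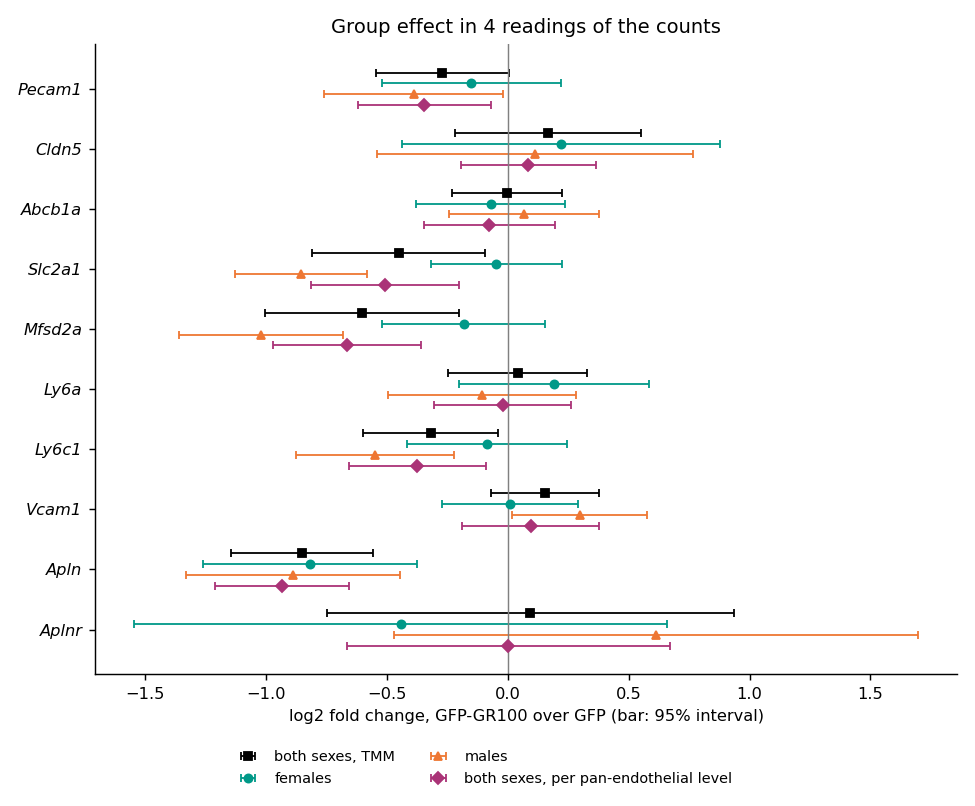
Group effect on the 10 genes as log2 fold change, GFP-GR100 over GFP (points) and 95% intervals (bars), for both sexes, for females, for males, and for both sexes with libraries scaled by 16 pan-endothelial genes. Slc2a1 and Mfsd2a lie at -0.85 and -1.02 in males but at -0.05 and -0.18 in females, whereas Apln lies at -0.89 and -0.82.

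Cldn5, the main claudin of the tight junctions of brain endothelium, was at 24.0, 25.7, 37.3 and 32.1 CPM in GFP 1 to 4. In GFP-GR100 1 to 4 it was at 28.7, 29.2, 25.7 and 49.5 CPM. The groups overlapped, with 1 GFP-GR100 male far above the rest. On the log2 scale the fold change was 0.17 (SE 0.17, 95% interval -0.22 to 0.55, edgeR adjusted p = 0.653), and without that library, GFP-GR100 4, it was -0.04 (adjusted p = 0.938). Cldn5 lies on chromosome 16 from 18776847 to 18778260.

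Abcb1a encodes P-glycoprotein, the efflux pump that returns foreign compounds to the blood. Its values were 23.0, 21.8, 18.7 and 20.4 CPM in GFP 1 to 4, and GFP-GR100 1 to 4 had 19.1, 23.5, 17.9 and 23.1 CPM. The groups covered nearly the same range, and the log2 fold change was close to 0 with a 95% interval of -0.23 to 0.23 (edgeR adjusted p = 0.995). The gene lies on chromosome 5 from 8660077 to 8748575. Its similar copy Abcb1b can share reads with it, and how the authors' counting split them is not given.

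Pecam1, or CD31, which joins endothelial cells at their contacts and marks the whole endothelium, was at 15.3, 15.4, 18.6 and 16.4 CPM in GFP 1 to 4. It was at 13.1, 14.6, 10.7 and 16.1 CPM in GFP-GR100 1 to 4. Of the 4 GFP-GR100 libraries 3 lay below all GFP libraries, and GFP-GR100 4 lay among them. The log2 fold change was -0.27 (SE 0.13, 95% interval -0.54 to 0.004, edgeR adjusted p = 0.327). Pecam1 lies on chromosome 11 from 106654217 to 106750628.

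Relative to Cldn5, Mfsd2a was lower in every GFP-GR100 library: the ratio of their CPM was 0.715 to 0.807 in GFP and 0.308 to 0.632 in GFP-GR100 libraries. The ratio of Slc2a1 to Cldn5 was 2.95 to 3.58 in GFP and 1.18 to 2.84 in GFP-GR100, again without overlap, with the lowest value of both ratios in GFP-GR100 4, where Cldn5 was highest. The ratio of Slc2a1 to Pecam1 overlapped, at 4.64 to 6.19 and 3.62 to 5.70. That of Mfsd2a to Pecam1 overlapped as well, with GFP-GR100 1 above GFP 1 and GFP 2. The share of all tested genes whose ratio to Cldn5 would not overlap is not given here. With Cldn5 alone as the scale, Mfsd2a gave -0.72 in edgeR's test with an adjusted p of 0.281. The ratios were set up after earlier results of these data were known.

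Of the 5 barrier genes 0 passed in edgeR and 1, Mfsd2a, in DESeq2 (adjusted p = 0.0155), with log2 fold changes from -0.60 to 0.17, and 2 of them, Slc2a1 and Mfsd2a, were lower at an unadjusted p under 0.05. Among 34 other genes of barrier junctions and transport, 2 rose and 0 fell in edgeR, with a median of -0.01. The 2 were Slco2b1, an organic anion transporter that microglia also make, at 16.4 to 22.4 CPM in GFP and 26.7 to 29.8 CPM in GFP-GR100 libraries (log2 fold change 0.60, SE 0.10, edgeR adjusted p = 0.00595), and F11r, the junction protein JAM-A, also found on blood cells (0.60, SE 0.12, adjusted p = 0.014). F11r did not pass without GFP 2 (adjusted p = 0.0562) or without GFP-GR100 2 (adjusted p = 0.0515). DESeq2 called 3 of the 34 higher and 0 lower, adding Slco1a4, a transporter named after its values were seen. Slco1a4 had a log2 fold change of 0.52 (SE 0.14, edgeR adjusted p = 0.09). It was at 0.14 in females and 0.89 in males (adjusted p = 0.712 and 0.00104), the direction opposite to Slc2a1 and Mfsd2a. The difference, males minus females, was 0.74 (adjusted p = 0.0935).

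Of the 10 microglia markers 7 rose beside Slco2b1 and F11r. P2ry12 (0.21), Tmem119 (0.41) and Fcrls (-0.02) were not called (edgeR adjusted p from 0.151 to 0.933). The summed level of the markers ran from 387 to 515 CPM in GFP and from 638 to 710 CPM in GFP-GR100 libraries, and Cx3cr1, Trem2 and C1qa were well above 0 in both groups. Their part in the Slco2b1 and F11r results was not tested. Of 18 Wnt signalling genes of the barrier, which is built and kept by Wnt ligands acting on endothelium, 0 passed edgeR's test or DESeq2, with 2 at an unadjusted p under 0.05. The one with the smallest p was Apcdd1, a Wnt target, with a log2 fold change of 0.27 (SE 0.09, adjusted p = 0.155), which passed without GFP 3 (adjusted p = 0.0489).

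Pan-endothelial genes gave 0 calls among 16 in edgeR's test, with 2 at an unadjusted p under 0.05 in each direction and a median of 0.12. Kdr, the main receptor of the vascular endothelial growth factors, had the smallest p, with 8.67 ± 1.08 and 11.8 ± 1.83 CPM (SD, n = 4 each; log2 fold change 0.45, adjusted p = 0.0853), and DESeq2 called it (adjusted p = 0.0178). Of 20 genes that differ along arteries, capillaries and veins 0 passed in edgeR or DESeq2, with 1 at an unadjusted p under 0.05, Cytl1, a secreted protein of arterial endothelium (-1.09, SE 0.41, adjusted p = 0.232). Of 15 pericyte and smooth muscle markers 0 passed in edgeR and 2 in DESeq2, with 4 at an unadjusted p under 0.05. The lowest p was that of smooth muscle actin, Acta2 (-1.04, SE 0.23, adjusted p = 0.0537), which passed in 8 of the other fits, DESeq2 among them (adjusted p = 5.77e-05).

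Tip cell and sprouting genes, with which Apln is known to be made in growing vessels, gave no call. Of 22 tested 0 passed edgeR's test or DESeq2, with 2 at an unadjusted p under 0.05, both upward, and a median log2 fold change of 0.03. Notch1, the receptor that limits sprouting, had the smallest p (0.39, SE 0.13, adjusted p = 0.163), and it passed without GFP-GR100 1 (adjusted p = 0.0431). Of 24 hypoxia targets 0 fell in edgeR (1 in DESeq2) and 1 rose. This was Hk2, a hexokinase, at 3.35 to 5.66 CPM in GFP and 7.95 to 10.3 CPM in GFP-GR100 libraries (log2 fold change 1.11, SE 0.13, edgeR adjusted p = 0.00049). The median of the hypoxia list was -0.16, with unadjusted p under 0.05 in 7 genes downward and 2 upward.

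Ly6a, the interferon-responsive surface protein, was at 18.0, 16.6, 31.6 and 22.1 CPM in GFP 1 to 4. It was at 16.8, 22.7, 24.4 and 25.6 CPM in GFP-GR100 1 to 4. The highest library was a GFP male and the lowest a GFP female, so the GFP range enclosed all 4 GFP-GR100 libraries. The means were 22.1 ± 6.78 and 22.4 ± 3.89 CPM (SD, n = 4 each), and the log2 fold change was 0.04 (SE 0.13, 95% interval -0.24 to 0.33, edgeR adjusted p = 0.896). It was 0.19 in females and -0.11 in males (adjusted p = 0.764 and 0.744), and -0.02 relative to the pan-endothelial genes (95% interval -0.30 to 0.26).

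Interferon-stimulated genes rose in the same libraries. Of the 20 listed, 15 rose and 0 fell, against 2.19% of all tested genes called higher, and all 20 had log2 fold changes above 0, with a median of 2.69. Their summed level was 159 and 118 CPM in GFP females, 200 and 101 CPM in GFP males, 678 and 787 CPM in GFP-GR100 females and 857 and 662 CPM in GFP-GR100 males. Irf9, a DNA-binding factor of interferon signalling, rose from 11.7 ± 1.72 to 45.3 ± 5.54 CPM (SD, n = 4 each; log2 fold change 1.95, SE 0.12, edgeR adjusted p = 7.93e-06), and Stat2, with which it acts, rose by 1.08 (adjusted p = 2.48e-05).

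**Figure D3:**
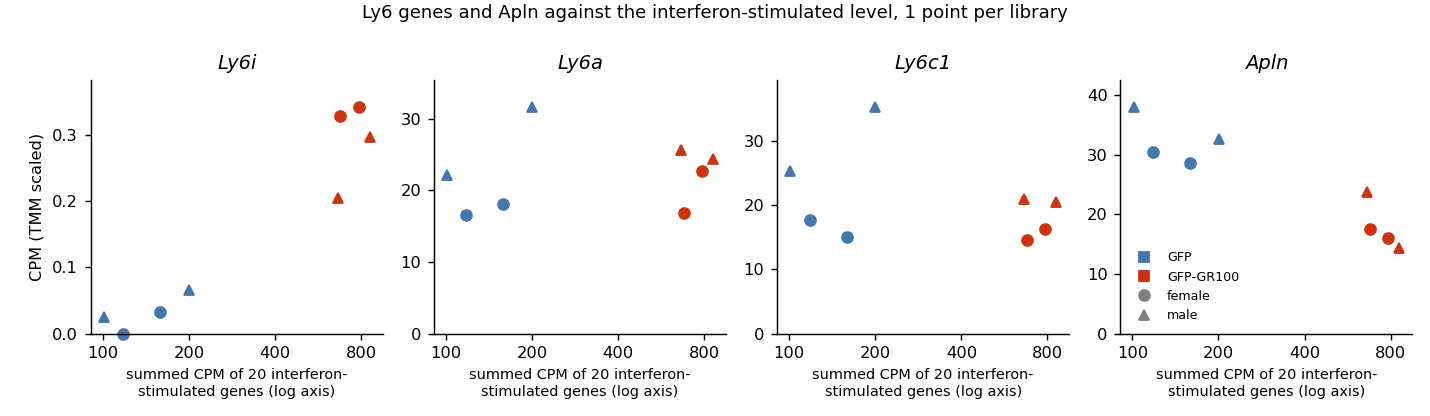
CPM of Ly6i, Ly6a, Ly6c1 and Apln (vertical axes, from 0) against the summed CPM of 20 interferon-stimulated genes (horizontal log axis), 1 point per library, GFP in blue, GFP-GR100 in red, circles female and triangles male. The interferon-stimulated level separates the groups (101 to 200 against 662 to 857 CPM), as do Ly6i and Apln, while Ly6a and Ly6c1 overlap.

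Ly6c1, the closest relative of Ly6a among the 10 genes, was at 15.1, 17.6, 35.3 and 25.4 CPM in GFP 1 to 4. It was at 14.6, 16.2, 20.5 and 21.01 CPM in GFP-GR100 1 to 4. The 2 GFP males were the highest of all, and in both groups the males lay above the females. Its log2 fold change was -0.32 (SE 0.13, 95% interval -0.60 to -0.04, edgeR adjusted p = 0.264), with -0.08 in females (adjusted p = 0.895) and a fall by 0.55 in males (adjusted p = 0.0414). The difference, males minus females, was -0.46 (95% interval -0.93 to 0.002, adjusted p = 0.306).

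Ly6c1 differed between the sexes. Over both groups it was higher in males by 0.66 on the log2 scale (SE 0.13, edgeR adjusted p = 0.0423), against 4.18% of all tested genes called between the sexes. Ly6a was at 0.49 (SE 0.13, adjusted p = 0.0563). Leaving out 1 library moved the Ly6c1 value between 0.51 and 0.74, and it no longer passed without GFP 1, 2 or 3 or without GFP-GR100 1, 2 or 3 (adjusted p from 0.0658 to 0.112). Within the GFP group both genes were higher in males in edgeR's test, Ly6c1 by 0.89 (adjusted p = 0.0104) and Ly6a by 0.64 (adjusted p = 0.0438). So was Mfsd2a, by 0.54 (adjusted p = 0.0423). The 4.18% above belongs to the comparison over both groups, and the share of all genes called within GFP is not given here. The Yam1 share also differed there, at 6.94% and 3.97% in GFP females and 2.31% and 2.11% in GFP males. Its part in these differences was not tested.

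Ly6a and Ly6c1 followed each other with r = 0.82 over the 8 libraries and r = 0.92 after each group's mean was removed. Both lie in the Ly6 cluster of chromosome 15, Ly6a at 74994877 to 74998031 and Ly6c1 at 75044018 to 75048830, and as similar copies they may share reads, so the split between them is uncertain. The ratio of Ly6a to Ly6c1 was 1.20, 0.94, 0.90 and 0.87 in GFP 1 to 4, and GFP-GR100 1 to 4 had 1.15, 1.40, 1.19 and 1.22. It was higher in all GFP-GR100 libraries than in 3 of the 4 GFP libraries.

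Of 15 tested Ly6 family genes 1 rose and 0 fell. It was Ly6i, a neighbour at 74979534 to 74983430, with 2, 0, 6 and 2 counts in GFP 1 to 4, while GFP-GR100 1 to 4 had 30, 27, 23 and 14 counts. The level was low throughout, at most 0.342 CPM, but the groups did not overlap (log2 fold change 3.13, SE 0.60, edgeR adjusted p = 0.0127). It no longer passed without GFP 4, GFP-GR100 2 or GFP-GR100 3 (adjusted p from 0.0507 to 0.0628), and as a similar copy of Ly6a and Ly6c1 it carries the same doubt on shared reads.

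Vcam1, which binds the integrin of incoming white blood cells on activated endothelium and is also made by astrocytes, was at 30.4, 25.3, 27.8 and 23.3 CPM in GFP 1 to 4. It was at 30.1, 25.9, 31.5 and 31.4 CPM in GFP-GR100 1 to 4. The groups overlapped, with the 2 GFP-GR100 males highest. Its log2 fold change was 0.15 (SE 0.10, 95% interval -0.07 to 0.38, edgeR adjusted p = 0.483), with 0.01 in females and 0.30 in males (adjusted p = 0.985 and 0.158). Across the 8 libraries Vcam1 ran opposite to Slc2a1, with r = -0.80 and r = -0.72 within groups, in the same libraries whose rRNA share differed. Vcam1 lies on chromosome 3 from 116110020 to 116129688.

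Other genes of endothelial activation and adhesion included 2 that rose and 0 that fell among 19 tested in edgeR, and DESeq2 called 3 higher and 1 lower. The lower one was Jam3, a junction protein named after its values were seen (log2 fold change -0.37, edgeR adjusted p = 0.0858), which edgeR also called without the filter on low counts, without GFP-GR100 4, and without GFP 3 and GFP-GR100 4. Icam1, which acts beside Vcam1 in the entry of white blood cells, was at 2.84, 2.08, 3.83 and 2.57 CPM in GFP 1 to 4, and GFP-GR100 1 to 4 had 5.32, 5.71, 5.45 and 5.92 CPM. Its groups did not overlap, and it rose by 1.00 (SE 0.17, edgeR adjusted p = 0.00535). Tnfrsf1a, the main receptor of tumour necrosis factor, rose by 0.60 (SE 0.09, adjusted p = 0.00345). Both are also made by microglia, for which 7 of 10 markers rose as given above. The part of microglia in the rise of Icam1 and Tnfrsf1a was not tested. The selectins Sele and Selp were too low to be tested.

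**Figure D4:**
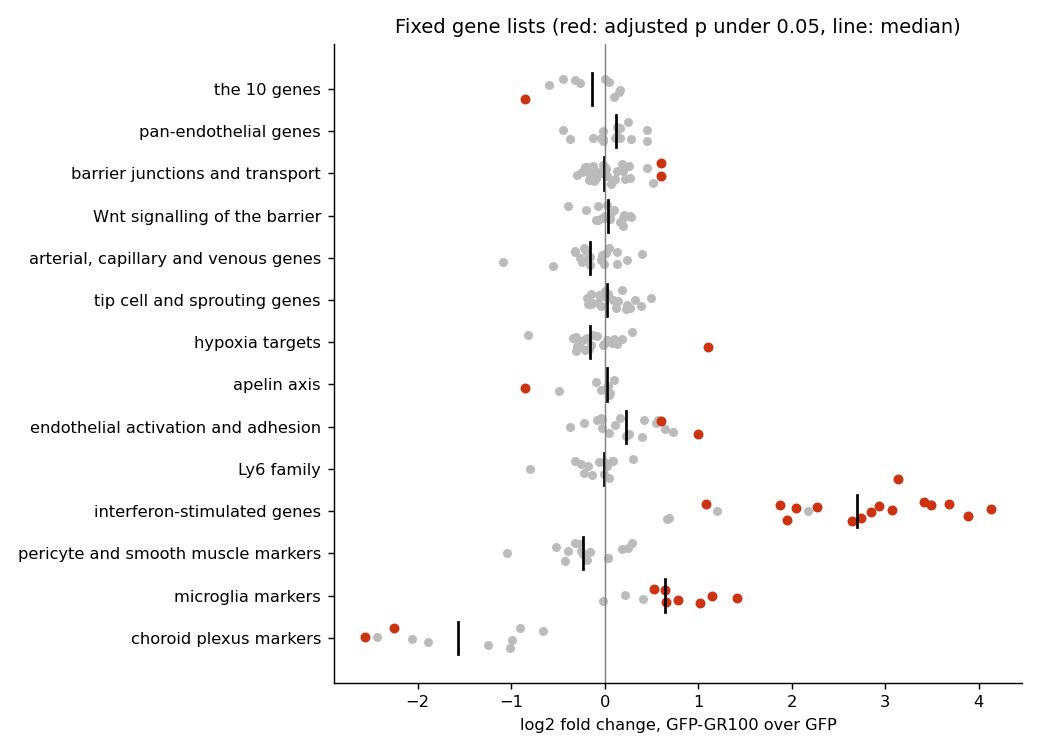
Group effect as log2 fold change, GFP-GR100 over GFP, for the tested genes of each list (1 point per gene, vertical position within a list random), red where the adjusted p was under 0.05, with the list's median as a black line. The 10 genes and the vascular lists lie around 0, whereas the interferon-stimulated genes lie to the right with a median of 2.69. Apln is the only gene in red to the left among the 10 and the vascular lists, drawn both with the 10 genes and in the apelin axis.

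Markers of blood cells and of tissues next to the cortex were read in the same libraries. Of 17 tested blood cell markers 2 rose, Ptprc (log2 fold change 1.31, edgeR adjusted p = 0.00436) and Plac8 (1.63, adjusted p = 0.00459), and 0 fell, with summed levels of 112 to 261 CPM in GFP and 125 to 395 CPM in GFP-GR100 libraries. Of the 17, 16 had log2 fold changes above 0. At an unadjusted p under 0.05 in edgeR, 5 lay higher and 0 lower, against 8.23% and 7.37% of all tested genes. Cd3e, Cd8a, Ccr2 and Nkg7 were among those not called (edgeR adjusted p from 0.634 to 0.901). Their levels were low, with group means of 0.17 to 0.63 CPM. Cd4 (0.31, adjusted p = 0.15) and S100a8 (0.88, adjusted p = 0.30) were not called either. The part of microglia, for which 7 of 10 markers rose as given above, in the rise of Ptprc was not tested. Of 10 choroid plexus markers 2 fell, Folr1 and Cldn2 (8 with DESeq2), and Cldn2 did not pass without GFP-GR100 2, 3 or 4 (edgeR adjusted p from 0.0542 to 0.0663). The summed level was 130 to 372 CPM in GFP and 34.0 to 90.3 CPM in GFP-GR100 libraries. Of 10 fibroblast and meningeal markers 0 passed in edgeR and 1 in DESeq2, with 2 at an unadjusted p under 0.05 and Slc6a13 at the smallest p (-0.57, adjusted p = 0.0733). Of 6 border macrophage markers 0 passed in edgeR or DESeq2, and 0 were at an unadjusted p under 0.05, with Pf4 at 0.46 (adjusted p = 0.383). Choroid plexus, meninges and blood cells hold vessels or Ly6 proteins of their own, and their part in the values of the 10 genes was not tested.

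Of the other cell types, 1 of 10 astrocyte markers rose, Gfap (1.37, SE 0.15, edgeR adjusted p = 0.000475). Among 8 oligodendrocyte lineage and 8 neuron markers 0 passed in edgeR, with 4 and 1 at an unadjusted p under 0.05, and DESeq2 called 2 and 0. The smallest p was that of Mog (-0.37, adjusted p = 0.0843) and Tubb3 (-0.33, adjusted p = 0.174).

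Compared per length, in RPKM (reads scaled by gene length and library total) of the GFP libraries, Slc2a1 was the highest of the 10 genes at 32.2 ± 6.95 (SD, n = 4). Cldn5 at 20.7 ± 4.94, Ly6a at 18.0 ± 6.08, Ly6c1 at 13.7 ± 5.78, Mfsd2a at 10.2 ± 2.78 and Apln at 10.1 ± 1.55 RPKM came next, and in this upper part each neighbour's range overlapped the next. Below them the ranges of neighbours were separate, with Vcam1 at 7.66 ± 0.71, Abcb1a at 3.73 ± 0.20, Pecam1 at 2.59 ± 0.33 and Aplnr at 0.17 ± 0.06 RPKM. Apln was thus above the pan-endothelial Pecam1 per length, and its receptor was the lowest of all 10. In GFP-GR100 libraries Apln was at 5.83 ± 1.32 RPKM, below Vcam1 at 8.94 ± 0.67 RPKM.

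Among 13774 genes with a mean of at least 1 CPM, those whose log2 CPM over the 8 libraries was most like that of Apln were Acsl3, Slco3a1, Rnf128, Pacsin2 and Ina, with r from 0.96 to 0.99. They had log2 fold changes of -0.38 to -0.20, and none passed the test by itself (edgeR adjusted p from 0.0791 to 0.228). The genes most like Ly6a were B3gnt9, Nhej1, Rpl9-ps7, Ppapdc1b and Nupl2, with r from 0.94 to 0.97, and those most like Cldn5 were Vat1, Tmie, Irs4, Asb16 and Dusp15, with r from 0.97 to 0.99. These are descriptions over libraries that share group, sex and rRNA share. None of these 15 is one of the 10 genes.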

How the data were processed

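RNA from cortex and hippocampus of 8 mice was sequenced from both ends with a stranded total RNA kit, per the labels. The deposited table gives a whole-number count and an RPKM value per gene and library. The authors made the counts with TopHat2 version 2.1.0 on mm10, per the submitters' processing notes, where R version 3.4.1, CASAVA and DESeq2 are listed too. No source used here names the gene counter or its use of strand, so reads of Slc2a1, Abcb1a and Vcam1 cannot be told from those of antisense genes on 105, 553 and 61 exonic bases. The authors scaled the deposited RPKM to the summed gene counts, since counts, lengths and RPKM gave back each total at a ratio of 1.00023 to 1.00024. The deposited coding length per gene was used for that check only.

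Counts were fitted with edgeR version 4.0.16 in R version 4.3.3: filterByExpr (minimum count 10, minimum total 15), TMM scaling, robust quasi-likelihood F test with sex and group, Benjamini-Hochberg adjustment over 20987 genes and a threshold of 0.05. Adding the sex by group product gave effects within each sex and their difference. Each log2 fold change is for GFP-GR100 over GFP, and its SE comes from the fold change and F. With 2 libraries per sex and group, the spread was estimated over all 8. Replicate numbers follow accession order and pair no animals. The 16 pan-endothelial genes gave a second scaling, as the mean of their log2 counts. Promoter windows are RefSeq's, exons GENCODE M21's. Tests were tried on simulated counts first.

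The 10 genes and all lists were chosen with earlier results of these data known. Beside the 10, the text names up to 3 called genes of each list with the smallest p, or the one with the smallest p where none was called, and the 5 genes most correlated with Apln, Ly6a and Cldn5, leaving out gene-model names. Some items that this rule takes in are not reported here. The alternatives tried were no filter, a mean of at least 1 CPM, median-of-ratios size factors, DESeq2 version 1.42.0, limma-voom and limma-trend on log2(RPKM + 0.1) with limma version 3.58.1, no sex covariate, scaling by Pecam1 or Cldn5, and leaving out each library. Leaving out GFP 3 and GFP-GR100 4 together and an rRNA share covariate were added after seeing the data.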

Additional observations from a re-analysis of the deposited data

Results flagged for a closer look

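A single library stood far from the other 3 of its group in 2 of the 20 groups of 4 values checked (10 genes in each of 2 groups), and chance alone would flag about 1 in 20. Both were in GFP-GR100 4, a male. Cldn5 was at 49.5 CPM there and at 25.7 to 29.2 CPM in the other GFP-GR100 libraries. Aplnr was at 1.32 CPM there and at 0.465 to 0.569 CPM in the others.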

How the results depend on the processing

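Apln was called lower in 18 alternatives, which leave out scaling by a single gene, with log2 fold changes from -1.0024 to -0.72 and adjusted p of at most 0.0252. Scaled by Pecam1 alone it was not called (-0.59, adjusted p = 0.0515). Pecam1, Ly6c1 and Vcam1 kept their direction in these 18 and were called in none. Mfsd2a was called without the filter (-0.59), with DESeq2 (-0.59), scaled by pan-endothelial genes (-0.66) and with the rRNA covariate (-0.61), and Slc2a1 without the filter (-0.44) and with the rRNA covariate (-0.46). Leaving out 1 library at a time gave -0.74 to -0.44 for Mfsd2a, called in none, and -0.61 to -0.33 for Slc2a1, called without GFP 1 (adjusted p = 0.0292). The sign of Abcb1a, close to 0 throughout, turned with median-of-ratios size factors (0.0065), DESeq2 (0.0065), no filter (0.0117), a mean of at least 1 CPM (0.0384), limma-trend (0.0553) and the rRNA covariate (0.0012), that of Ly6a with pan-endothelial scaling (-0.0194), and that of Aplnr without GFP 3 and GFP-GR100 4 (-0.19). Leaving out 1 library moved Abcb1a from -0.0941 to 0.0926, Ly6a from -0.062 to 0.21, Aplnr from -0.39 to 0.35 and Cldn5 from -0.0351 to 0.34. Relative to Pecam1 alone 0 of the 10 genes were called, against 2 with the pan-endothelial genes and 1 (Apln) with Cldn5 alone; Abcb1a and Ly6a were then at 0.27 and 0.34 by Pecam1, and Aplnr at -0.10 by Cldn5.

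Over all genes, 460 higher and 68 lower calls became 1168 and 361 without the filter, 724 and 200 with DESeq2, 442 and 116 with pan-endothelial scaling, 442 and 36 at a mean of 1 CPM, 515 and 32 with limma-trend, 378 and 35 without sex, 579 and 115 without GFP 3 and GFP-GR100 4, 656 and 226 with the rRNA covariate, and 304 to 514 and 19 to 77 without 1 library. The share of lower calls moved from 12.9% to 23.6% without the filter and 25.6% with the rRNA covariate. The 11 genes whose effect differed between sexes became 1353 without the filter, 162 without GFP 3 and GFP-GR100 4, and 1 to 828 without 1 library. The cause was not tested for any of these. No paired analysis was possible because the labels number no replicates. Depth limits Aplnr most, with under 1.4 CPM in every library.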
